A study of Mus musculus with 6 samples.

Results

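The renin-angiotensin genes were examined in RNA sequencing of 6 mouse kidney samples. The 9 genes were taken by symbol from the 46095 rows of the deposited count table: Ren1, Agt, Ace, Agtr1a, Agtr1b, Lnpep, Enpep, Atp6ap2 and Mas1. All 9 had a row, and 7 had enough counts to be tested, among 15367 tested genes. The treatment label named DHT (dihydrotestosterone, an androgen that aromatase cannot turn into estrogen) in 3 samples, and the other 3 were named control, all on a C57BL/6 background and all carrying the strain name of the PCOS (polycystic ovary syndrome) model, the controls included. No dose, route, duration or age is given by these labels, and they do not say whether replicates are separate animals, so each p-value measures the spread between these samples, which may be technical. The study asked how gene expression in the kidney differs in this model.

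Renin, made by juxtaglomerular cells in the wall of the afferent arteriole, cuts angiotensinogen to angiotensin I, and angiotensin-converting enzyme turns that into angiotensin II. Angiotensin II acts on its main receptor to constrict vessels and retain sodium, and it restrains renin release in a feedback loop. Aminopeptidases trim the peptides further, and the kidney tubule holds its own angiotensinogen, converting enzyme and receptors.

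Renin and the aminopeptidase Lnpep were the members that stood higher in the DHT kidneys by the largest amounts, and Lnpep alone passed the test. Lnpep was 2.90-fold higher. Ren1 had a larger difference, 7.20-fold, with a spread of more than 3-fold within each group, and did not pass. The substrate, the converting enzyme and the main receptor did not pass in either direction. Of 7 members tested with edgeR's quasi-likelihood test, 1 was called higher and 0 lower at a Benjamini-Hochberg adjusted p of 0.05, where 2.84% of the 15367 were called, 1.38% higher and 1.46% lower. At an unadjusted p under 0.05 there were 3 members (Lnpep, Ren1 and Enpep) against 23.9% of all tested genes. DHT and control libraries did not overlap for 4 members, Ren1, Lnpep and Enpep (higher in DHT) and Agtr1a (lower), where 29.8% of the tested genes had no overlap. An exact two-sided permutation test over the 20 divisions of the libraries cannot go below 0.1 with 3 against 3, and it gave 0.1 for those 4, 0.5 for Atp6ap2, 0.8 for Agt and 0.9 for Ace. The median log2 fold change of the 7 members was 0.08, against 0.003 for all genes tested. The shares of all tested genes given here also apply beside the counts for each list below.

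**Figure D1:**
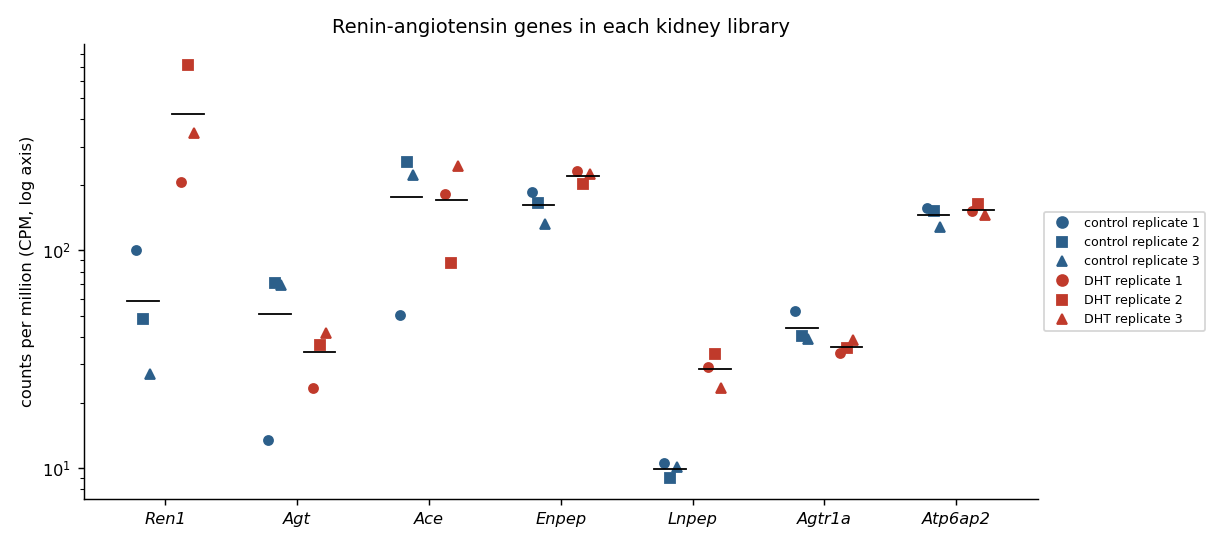
Level of the 7 tested genes in each library, in counts per 1000000 (CPM) on a log axis, with blue marks for control, red marks for DHT, a symbol for each replicate and black bars at the group means. Lnpep and Ren1 part the groups widely, with the highest Ren1 value in DHT replicate 2 (714 CPM). Enpep (higher in DHT) and Agtr1a (lower) part them narrowly, while Ace and Agt are lowest in control replicate 1.

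Libraries held 15054763 to 19331942 counts. Values below are counts per 1000000 (CPM), with library sizes scaled by TMM. The number of genes called over the whole table depended on single libraries and was 0 without DHT replicate 3 (edgeR, with 2763 genes at an unadjusted p under 0.05). DHT replicate 2 stood apart in leukocyte and vessel genes: the summed level of 11 macrophage and monocyte markers was 426 CPM there against 119 to 261 CPM in the other 5 libraries, and that of 10 endothelial markers 961 CPM against 554 to 716 CPM. Proximal tubule markers (11 genes) summed to 11590 to 15780 CPM and loop of Henle markers (7 genes) to 6526 to 14950 CPM, so the defining genes of kidney tubule were present in all libraries. The loop of Henle sums were 7435, 6526 and 8354 CPM in DHT replicates 1, 2 and 3. In control replicates 1, 2 and 3 they were 6887, 9566 and 14950 CPM. Of these 7 genes, which include Slc12a1 and Kcnj1, 0 were called and 6 had a fold change below 0 (median log2 -0.28). Control replicate 3, highest for the loop of Henle sum, was also highest for 7 principal cell markers. Those summed to 1043 CPM there and to 540 to 714 CPM in the other 5 libraries. Control replicate 3 also had the lowest Ren1, and the part of these tubule markers in the Ren1 value was not tested.

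Agtr1a had no promoter window and was not searched. Of the other 8 genes, 3 hold the letters TATAAA, the core of a TATA box that places the start of transcription, in the 250 bases before their RefSeq start. They are shown because the window covers the renin and angiotensinogen genes, the enzyme and substrate of the first step. Each line gives 30 bases, read 5′ to 3′ on the gene's strand from RefSeq on GRCm38.p6, with TATAAA in capitals.
Ren1, chr1:133350633-133350662, plus strand: atacatggtgtgTATAAAagaaggctcagg
Agt, chr8:124569719-124569748, minus strand: ccaccccttgagTATAAAtaagcctgcttg
Agtr1b, chr3:20367191-20367220, minus strand: gcccctttgctgTATAAAttgtagctgtct
In these the first T lay 29, 30 and 31 bases before the start for Ren1, Agt and Agtr1b. Among 32851 RefSeq windows of that length 7.59% held the letters on the gene's strand, and 3 of the 9 windows of the 8 matched members did. Lnpep, Enpep, Mas1, Atp6ap2 and both windows of Ace did not hold them. The Lnpep window was 70.0% G and C and the Ren1 window 51.6%, with a median of 52.4% over all windows. Searched on both strands, the E-box CACGTG, the cAMP response element TGACGTCA, the full androgen response element and the D-box TTATGNAA were in 0 of the 9 windows, and in 6.02%, 1.55%, 0.00913% and 3.07% of all windows. With shares this low, 0 of 9 windows is the likely outcome for any genes. Bases farther from the start were not searched, so nothing about control by these elements follows.

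Ren1 (ENSMUSG00000070645.5, chromosome 1, 133350510 to 133360325 on GRCm38, plus strand) encodes renin, whose activity limits the rate of angiotensin formation in blood. It had 206, 714 and 347 CPM in DHT replicates 1, 2 and 3, from 3285, 11407 and 5843 counts. Control replicates 1, 2 and 3 had 101, 48.5 and 27.2 CPM, from 1635, 935 and 549 counts. Every DHT library lay above every control library, and the lowest DHT value was 2.05 times the highest control value. Within a group the highest library was 3.46 times the lowest in DHT and 3.70 times in control. The mean was 422 ± 262 CPM with DHT against 58.7 ± 37.7 CPM in control (SD, n = 3 each). The log2 fold change was 2.85 ± 0.66 (SE) with an edgeR adjusted p of 0.0719, and Ren1 ranked 46 of 15367 tested genes from the highest fold change and 981 by p.

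The Ren1 call depended on the tool. The gene passed with DESeq2 (adjusted p = 0.00342), with limma-voom (0.0452) and with no robust step in edgeR (0.0423), so that with each of them 2 members were called higher and 0 lower. DESeq2 called 10.6% of all genes, 5.56% higher and 5.08% lower. Limma-voom called 2.09%, 1.0% higher and 1.09% lower, and edgeR with no robust step 3.05%, 1.52% higher and 1.53% lower. Ren1 did not pass under the other 11 alternatives, with adjusted p between 0.0621 and 0.203, and the log2 fold change over all 14 lay between 2.23 and 3.48. The lowest of these came without DHT replicate 2, at 2.23 (adjusted p = 0.118), and the highest without control replicate 1, at 3.48 (0.0621). In whole tissue, fewer cells of a type and less RNA per cell cannot be told apart, and this holds for every level given here.

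**Figure D2:**
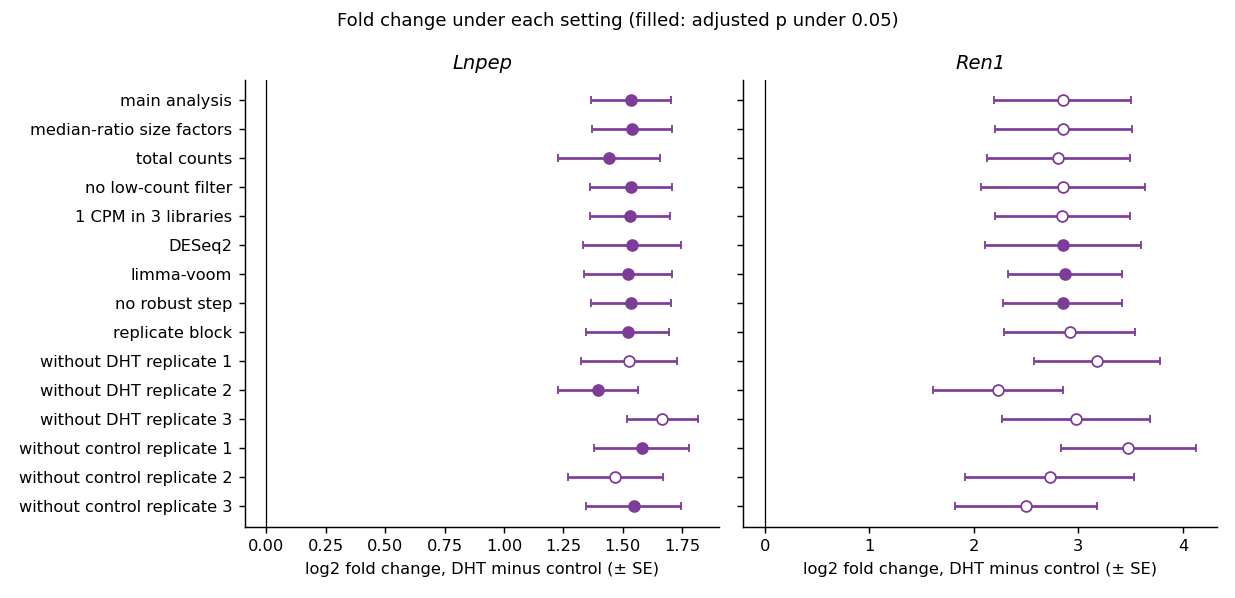
Log2 fold change of Lnpep (left) and Ren1 (right), DHT minus control, with SE bars, under the main analysis and 14 alternatives, with filled points for an adjusted p under 0.05. Lnpep stays between 1.40 and 1.67 and passes in 11 alternatives, while Ren1 stays between 2.23 and 3.48 and passes in 3.

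Genes of renin cells and of renin secretion did not move together. Of 29 tested, 1 was called higher, Akr1b7, and 1 lower, Adcy6, with a median log2 fold change of -0.04. EdgeR called 2.84% of all tested genes. Akr1b7, an aldo-keto reductase that is also made by renin cells, had 5.78, 10.9 and 7.59 CPM in DHT replicates 1, 2 and 3 and 3.44, 2.70 and 2.08 CPM in control replicates 1, 2 and 3. It rose by 1.57 ± 0.32 log2 (edgeR adjusted p = 0.0418, from 394 and 150 counts), and its transcript is 89.4% identical to that of Akr1b10 over 75.2% of its length. The 6 libraries stood in the same order for Akr1b7 as for Ren1, from DHT replicate 2 at the top to control replicate 3 at the bottom, and Akr1b7 was among 33 genes of 15367 tested (0.215%) that had the order of Ren1. Pappa2, a protease made by the macula densa, was the other listed gene with it, at 3.52, 5.32 and 3.80 CPM in DHT replicates 1, 2 and 3 and 3.26, 1.56 and 0.989 CPM in the controls (edgeR adjusted p = 0.165). Pappa2 shares 310 exonic bases with another gene model on the same strand. Any single order of the libraries has a small share: it was 0.189% for that of Lnpep, 0.143% for Agt and 0.0846% for Ace. Listed genes also had the order of Lnpep (Atp6v1g3) and of Agt (Slc22a13 and Slc5a1), so such a match is not particular to Ren1. Akr1b7 kept its call without DHT replicate 2 or control replicate 1 and lost it without any of the other 4 libraries, with total counts, with limma-voom and with the replicate block (adjusted p up to 0.145).

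Adcy6, an adenylyl cyclase of the cAMP pathway that drives renin release, fell from 240 ± 30.7 to 149 ± 8.63 CPM (a log2 difference of -0.69 ± 0.14, edgeR adjusted p = 0.0395), and kept that call without DHT replicate 2 but not without any of the other 5 libraries or with the replicate block. Adcy6 is active in many tubule cells as well, and 605 of its exonic bases are shared with Gm29331 on the other strand. Its close relative Adcy5, also used by renin cells, had 6.85, 6.45 and 7.42 CPM in DHT against 5.53, 5.55 and 5.44 CPM in control, without passing the test (adjusted p = 0.347). Casr, the calcium-sensing receptor that inhibits renin release and is abundant in the thick ascending limb, was at 116 ± 13.1 CPM with DHT against 175 ± 36.3 CPM in control (adjusted p = 0.0887). Crebbp, a coactivator needed for renin expression, was at 29.6, 31.4 and 34.5 CPM in DHT and 46.7, 38.7 and 37.5 CPM in control (adjusted p = 0.132). Gja5, the gap junction protein of renin cells and arterial endothelium, had 8.42, 13.7 and 10.8 CPM in DHT replicates 1, 2 and 3 and 5.29, 6.69 and 9.75 CPM in control, and the groups overlapped (adjusted p = 0.229). A stretch of 165 exonic bases of Gja5 is shared with Gpr89 on the other strand, and 856 bases of its transcript are 99.4% identical to Zfp697. With the strand setting not given, part of its reads may not be told apart.

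**Figure D3:**
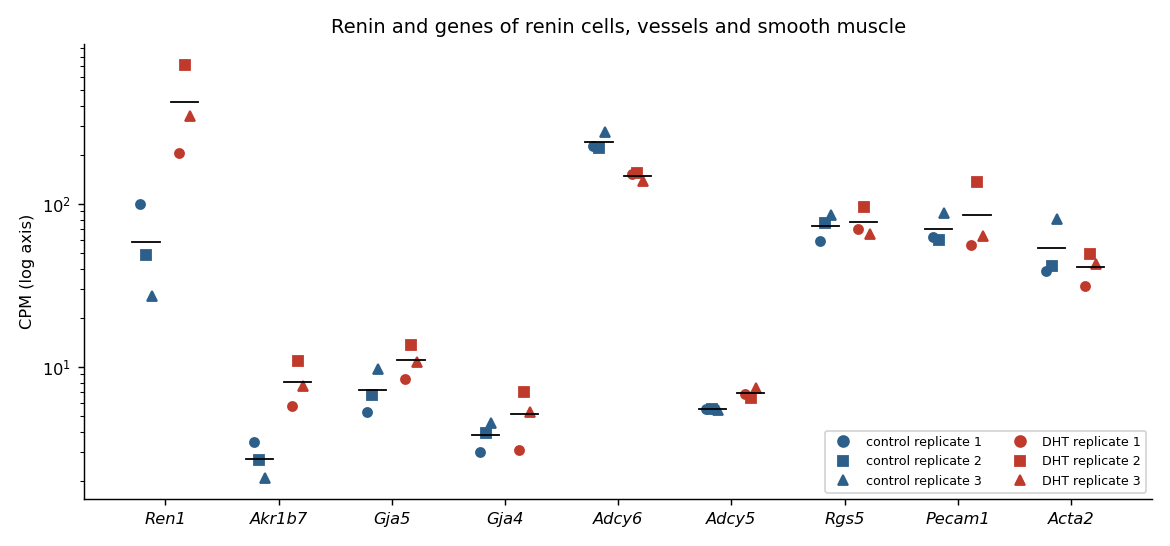
Level of Ren1 and of 8 genes of renin cells (Akr1b7, Gja5, Gja4, Adcy6, Adcy5), pericytes (Rgs5), endothelium (Pecam1) and smooth muscle (Acta2) in each library, in CPM on a log axis, with bars at the group means. Ren1, Akr1b7 and Adcy5 part the groups upward and Adcy6 downward, while Pecam1 is high in DHT replicate 2 alone.

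Markers of the vessel wall, where renin cells sit, did not separate the groups as Ren1 did. Summed levels of 8 vascular smooth muscle markers were 203, 264 and 243 CPM in DHT replicates 1, 2 and 3 and 289, 255 and 394 CPM in control replicates 1, 2 and 3, and 1 of 8 was called, Smtn, a smooth muscle cytoskeletal protein, which fell by 0.76 ± 0.16 log2 (edgeR adjusted p = 0.0453). The Smtn call held without DHT replicate 2 and was lost without any other library, with total counts, with limma-voom and with the replicate block. Pericyte and mesangial markers (8 genes, 0 called) summed to 174 to 224 CPM in DHT and 193 to 229 CPM in control. Fold changes were below 0 for 7 of 8 smooth muscle markers (median log2 -0.21). The same held for 6 of 8 pericyte and mesangial markers (median -0.2). Among 10 endothelial markers 7 were above 0 (median 0.21), where 50.3% of all tested genes were above 0. Of 10 endothelial markers 1 was called, Ehd3, a marker of glomerular endothelium, which was higher in DHT (log2 fold change 0.76 ± 0.12, adjusted p = 0.0261), a call kept without DHT replicate 2 or control replicate 1 and lost without any of the other 4, with total counts and with the replicate block. DHT replicate 2, with the highest Ren1, was also the highest for the endothelial and macrophage sums, and their part in the Ren1 value was not tested. Without that library the Ren1 log2 fold change was 2.23. Adrenal tissue can make renin. Of 10 adrenal markers, 4 (Cyp11b1, Cyp11b2, Cyp21a1 and Th) were at 0 counts in all 6 libraries. The 10 summed to 0.534 to 2.38 CPM in DHT and 2.64 to 15.3 CPM in control, highest in control replicate 3. The part of adrenal tissue in the Ren1 value was not tested.

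The macula densa, the tubule cells that sense salt and signal to renin cells, was followed through 8 tested genes, of which 0 were called higher and 1 lower. The share called over all tested genes was 2.84%. Avpr1a, a vasopressin receptor, fell from 20.8 ± 0.214 to 9.72 ± 2.41 CPM (a log2 difference of -1.10 ± 0.19, edgeR adjusted p = 0.0329), and kept its call without DHT replicate 2 or control replicate 1 and not without the others or with the replicate block. In whole tissue the cells that made this Avpr1a RNA are not known. Slc12a1, the salt transporter through which these cells and the thick ascending limb take up chloride, was at 967, 863 and 917 CPM in DHT replicates 1, 2 and 3 and 936, 1625 and 3094 CPM in control replicates 1, 2 and 3. Control replicate 1 lay within the DHT range, and the gene did not pass (adjusted p = 0.158). Ptgs2, the cyclooxygenase that makes prostaglandins for renin release, had 59 and 31 counts in the groups and did not pass (adjusted p = 0.307).

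The substrate gene Agt (ENSMUSG00000031980.9, chromosome 8, 124556534 to 124569706, minus strand) encodes angiotensinogen, which the kidney makes mainly in the straight part of the proximal tubule. It had 23.3, 36.8 and 41.8 CPM in DHT replicates 1, 2 and 3 and 13.4, 70.9 and 69.1 CPM in control replicates 1, 2 and 3. All DHT libraries lay below control replicates 2 and 3 and above control replicate 1. The log2 fold change was -0.59 ± 0.60 (edgeR adjusted p = 0.592). Without control replicate 1 it was -1.05 and still did not pass (adjusted p = 0.0614). Liver is the main source of circulating angiotensinogen, and 8 liver markers summed to 115, 89.1 and 133 CPM in DHT replicates 1, 2 and 3 against 70.0, 99.0 and 58.7 CPM in control replicates 1, 2 and 3. Of 7 of them tested with edgeR 0 were called, with 3 at an unadjusted p under 0.05, 2 called higher by DESeq2 and 0 by limma-voom. The groups did not overlap for 3, with Apoh and Serpina1a higher in DHT and Fgb lower. Over all tested genes 23.9% had an unadjusted p under 0.05, 29.8% had no overlap, and DESeq2 called 5.56% higher. Alb, the albumin gene, was at 14.9 ± 2.20 CPM with DHT against 14.3 ± 5.35 CPM in control. The part of these markers in the Agt value was not tested.

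Ace (ENSMUSG00000020681.14, chromosome 11, 105967945 to 105989964, plus strand), the converting enzyme of endothelium and of the proximal tubule brush border, had 182, 87.2 and 245 CPM in DHT replicates 1, 2 and 3. In control replicates 1, 2 and 3 it had 50.7, 254 and 222 CPM. The groups overlapped fully, and each had 1 library far below its others, DHT replicate 2 and control replicate 1. The log2 fold change of -0.04 ± 0.64 (edgeR adjusted p = 0.977) turned to 0.16 with limma-voom, 0.14 with the replicate block, 0.27 with DHT replicate 2 left out, 0.33 without control replicate 2, and 0.16 when control replicate 3 was dropped. RefSeq gives Ace a second start inside the gene, used in the testis, and a count per gene does not part the forms.

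Markers of the straight segment of the proximal tubule differed among themselves in those libraries. Control replicate 1 was the lowest control library for all 8 markers, and DHT replicate 2 the lowest DHT library for 6 of 8. They were the 2 lowest of all 6 libraries for 2 of the markers, Slc5a10 and Atp11a, while for 2 others, Slc7a13 and Cyp7b1, DHT replicate 2 lay above every control library. The summed level of the 8 was 8028, 3589 and 8083 CPM in DHT replicates 1, 2 and 3 against 2427, 4329 and 3536 CPM in control replicates 1, 2 and 3, and none of the 8 was at 0. Of the 8 markers 1 was called, Slc7a13, an amino acid transporter, which rose from 0.888 ± 0.574 to 499 ± 335 CPM (edgeR adjusted p = 0.0201), a call that, among libraries left out, held without DHT replicate 2 or control replicate 1 and not without the others. The part of the straight segment in the Ace and Agt values was not tested.

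Lnpep (ENSMUSG00000023845.7, chromosome 17, 17521410 to 17625050, minus strand) encodes a membrane aminopeptidase that degrades oxytocin and vasopressin, binds angiotensin IV and travels with glucose transporter vesicles. It had 29.1, 33.6 and 23.3 CPM in DHT replicates 1, 2 and 3, from 463, 536 and 392 counts. In control replicates 1, 2 and 3 it had 10.6, 8.98 and 10.1 CPM, from 172, 173 and 204 counts. The lowest DHT library was 2.20 times the highest control library. Lnpep rose from 9.88 ± 0.821 to 28.6 ± 5.17 CPM, or by 1.53 ± 0.17 log2 (edgeR adjusted p = 0.0125), and ranked 12 of 15367 genes by p and 182 from the highest fold change. The call held in 11 of 14 alternatives and was lost without DHT replicate 1 (adjusted p = 0.053), DHT replicate 3 (0.0714) or control replicate 2 (0.0682), while the log2 fold change stayed between 1.40 and 1.67. The highest library was 1.44 times the lowest in DHT and 1.18 times in control.

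Enpep (ENSMUSG00000028024.14, chromosome 3, 129269175 to 129332720, minus strand), the glutamyl aminopeptidase that removes the first residue of angiotensin II, had 233, 203 and 225 CPM in DHT replicates 1, 2 and 3. Its control replicates 1, 2 and 3 had 185, 166 and 132 CPM. The groups did not overlap, and the lowest DHT library was 1.10 times the highest control library. The log2 fold change was 0.45 ± 0.15 (edgeR adjusted p = 0.122), and the adjusted p lay between 0.0534 and 0.277 over the 14 alternatives, in none of which Enpep passed.

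Across the zinc aminopeptidase family to which both belong, 9 genes were tested, and Lnpep was the single call, with a family median of -0.08. Anpep, aminopeptidase N of the brush border, had 152, 100.1 and 192 CPM in DHT replicates 1, 2 and 3 and 152, 169 and 184 CPM in control. Npepps, a cytosolic puromycin-sensitive member, was at 72.2 ± 2.02 CPM with DHT against 79.9 ± 3.32 CPM in control (edgeR adjusted p = 0.401). The member 2010111I01Rik was at 46.3 ± 4.09 and 52.9 ± 5.82 CPM (adjusted p = 0.377) and overlaps exons of Fancc on the other strand. Trhde and Lvrn were at 0 counts in all libraries.

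The vesicles that carry LNPEP with the insulin-regulated glucose transporter were followed through 10 tested genes, and Lnpep was again the single call. Tbc1d4, the insulin-controlled brake on those vesicles, was at 19.4 ± 1.53 CPM with DHT against 32.4 ± 8.84 CPM in control, not passing the test (edgeR adjusted p = 0.0693). Aspscr1, a tether of the vesicles, was at 76.2 ± 11.2 and 58.6 ± 7.51 CPM (adjusted p = 0.161), and Sort1, a sorting receptor, at 73.0 ± 1.63 and 98.6 ± 34.8 CPM (adjusted p = 0.27). Slc2a4, the transporter itself, was at 0.0519 to 0.251 CPM, too low to be tested.

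The main angiotensin II receptor gene Agtr1a (ENSMUSG00000049115.15, chromosome 13, 30336441 to 30382867, plus strand) had 33.7, 35.5 and 38.6 CPM in DHT replicates 1, 2 and 3. In control replicates 1, 2 and 3 it had 52.5, 40.5 and 39.0 CPM. The highest DHT library was just under the lowest control library, and control replicate 1 stood above the rest. The log2 fold change was -0.29 ± 0.14 (edgeR adjusted p = 0.243), and it was -0.15 without control replicate 1. Agtr1b, its copy on chromosome 3 (20314473 to 20367177, ENSMUSG00000054988.9), had 2 counts in DHT replicate 2, 1 in control replicate 3 and 0 in the other 4 libraries. The transcripts of this pair are 90.2% identical over 1134 bases, and how reads that fit both were counted is not given in the sources used here. Mas1 (ENSMUSG00000068037.11, chromosome 17, 12841079 to 12868143), the receptor for a shorter angiotensin that opposes angiotensin II, had 1 count in DHT replicate 1, 3 in control replicate 2, 1 in control replicate 3 and 0 elsewhere. A count of 0 allows up to 3 counts, or 0.148 to 0.189 CPM depending on the library. The libraries with 1 to 3 counts allow more than that. Both genes had too few counts to be tested, and no fold change is given.

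Atp6ap2 (ENSMUSG00000031007.2, chromosome X, 12587801 to 12617049, plus strand), named the prorenin receptor and also a part of the vacuolar proton pump, had 152, 164 and 146 CPM in DHT replicates 1, 2 and 3 and 157, 151 and 128 CPM in control replicates 1, 2 and 3. The groups overlapped. Its log2 fold change was 0.08 ± 0.13 (edgeR adjusted p = 0.722), and it was -0.011 with total counts and -0.007 without control replicate 3. Of 22 proton pump genes tested 0 were called, 0 being the count in each direction, with 6 at an unadjusted p under 0.05, 2 called higher by DESeq2 (Atp6v1d and Atp6v1g3) and 0 by limma-voom. The shares over all tested genes were 23.9% at that unadjusted p and 5.56% called higher by DESeq2. The fitted fold change was above 0 for 19 of the 22, with a median of 0.22, where 50.3% of all tested genes were above 0. With total counts 17 were above 0. The smallest p belonged to Atp6v1g3, the stalk subunit of intercalated cells, with 106 ± 4.62 CPM with DHT against 76.0 ± 9.01 CPM in control (adjusted p = 0.0663), followed by Atp6v1d at 150.0 ± 15.6 and 116 ± 3.51 CPM (0.113) and Atp6v0e at 114 and 90.3 CPM (0.128). Atp6v1f, at 165 ± 28.4 and 125 ± 3.24 CPM, has a near-identical copy over 51.2% of its transcript and is uncertain.

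Levels of different genes were compared as CPM per kb of exon. In control the members stood in the order Atp6ap2 (55.5 ± 5.91 CPM per kb), Ren1 (35.4 ± 22.8), Enpep (34.2 ± 5.70), Ace (33.2 ± 20.7), Agt (27.0 ± 17.3), Agtr1a (15.8 ± 2.64) and Lnpep (0.699 ± 0.0580), and Ren1, Enpep, Ace and Agt lay within the spread of each other. In DHT the order was Ren1 (255 ± 158), Atp6ap2 (58.8 ± 3.41), Enpep (46.8 ± 3.32), Ace (32.4 ± 15.04), Agt (17.96 ± 5.06), Agtr1a (12.9 ± 0.888) and Lnpep (2.02 ± 0.366). Each DHT library had more Ren1 per kb than any other member, and among controls this held in replicate 1 alone, by a small margin over Atp6ap2 (60.7 against 59.9 CPM per kb). Lnpep was the lowest of the tested members per length in both groups. The ratio of Ren1 to its substrate gene Agt, per length, was 10.1, 22.2 and 9.46 in the DHT libraries, in replicate order, against 8.56, 0.781 and 0.449 in the controls, with control replicate 1, the library lowest in Agt, close to DHT.

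**Figure D4:**
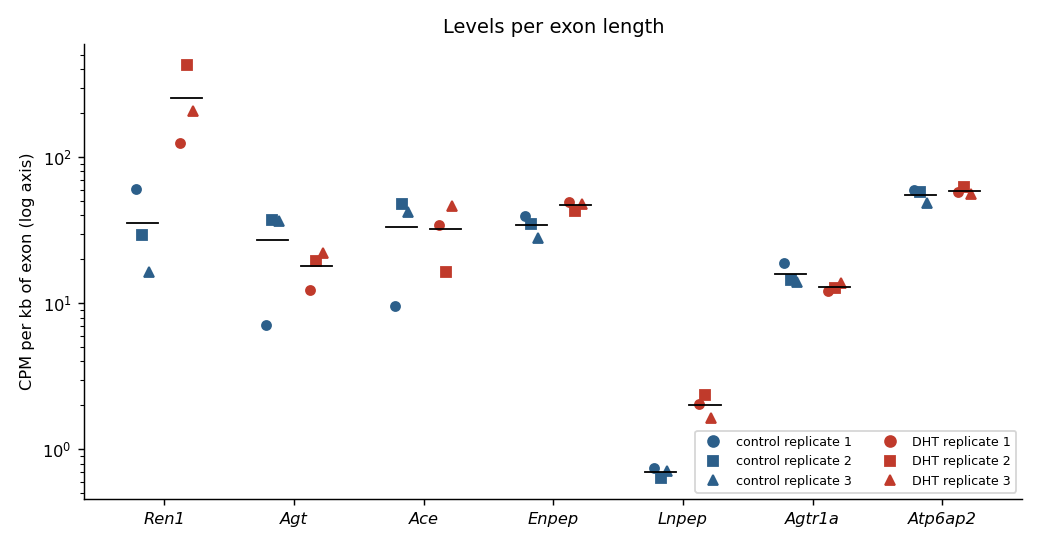
Level of the 7 tested genes per kb of exon in each library, on a log axis, with bars at the group means. Ren1 goes from among Enpep, Ace and Agt in control to the top in DHT, and Lnpep is the lowest in both groups.

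Beyond the members, 15 other genes that process or bind angiotensin peptides were tested, and 0 were called in either direction by edgeR's quasi-likelihood test. DESeq2 called 1 higher, Prcp, and limma-voom 0. At an unadjusted p under 0.05 there were 2, Prcp among them, where 23.9% of all tested genes had such a p. The fold changes of 12 of the 15 lay above 0 (median 0.19), or of 10 with total counts (median 0.09). Prcp, a carboxypeptidase that inactivates angiotensin II, was at 61.3 ± 4.17 CPM with DHT against 40.3 ± 6.32 CPM in control (a log2 difference of 0.61 ± 0.14, edgeR adjusted p = 0.0528). It passed in 3 of 14 alternatives, DESeq2, no low-count filter and without DHT replicate 2. Ctsd, a lysosomal aspartyl protease, was at 843 ± 75.6 and 695 ± 44.9 CPM (adjusted p = 0.293), and Dpp3, a cytosolic angiotensin-degrading peptidase, at 54.8 and 47.5 CPM (adjusted p = 0.325). Ctsd shares 808 exonic bases with Gm49369 on the same strand, so part of its reads may not be told apart. Agtr2, the other angiotensin II receptor, had at most 5 counts in a library. Mast cell proteases that can form angiotensin II were barely present, with Mcpt4 at 0 counts and Cma1 at 1 count in all.

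**Figure D5:**
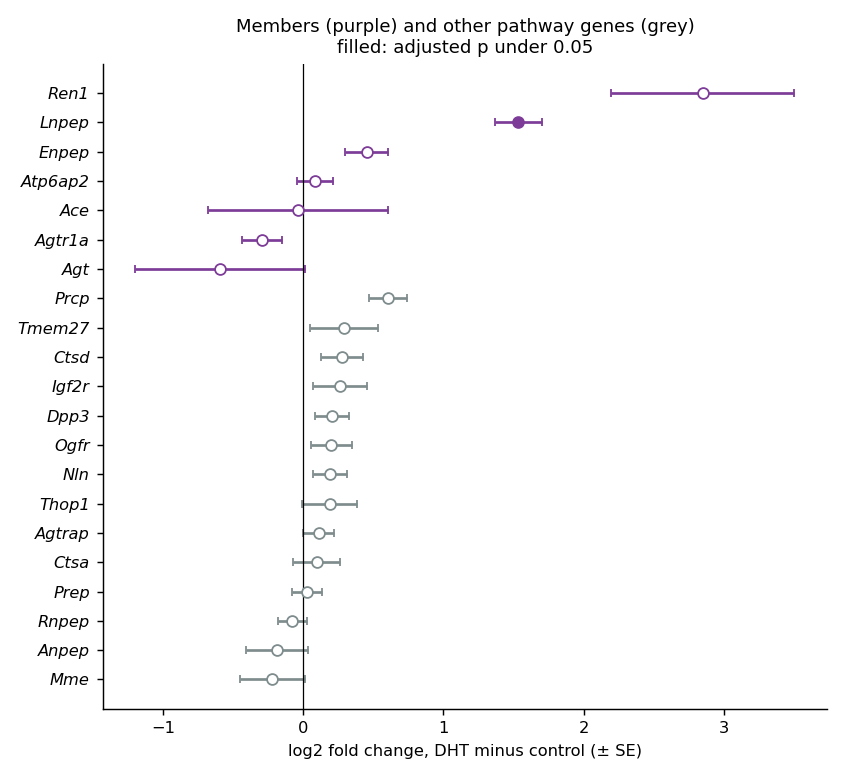
Log2 fold change, DHT minus control, with SE bars, of the 7 tested members (purple) and 14 of the 15 other angiotensin-processing genes and receptors (grey), with filled points for an adjusted p under 0.05. Lnpep at 1.53 is the filled point, Ren1 lies farthest right at 2.85, and the grey points lie between -0.22 and 0.61.

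The kallikrein-kinin genes, whose peptides Ace also degrades, held 0 calls in either direction among 7 tested with edgeR, with 0 at an unadjusted p under 0.05, 0 by DESeq2 and 0 by limma-voom. Klk1, tissue kallikrein, was at 3390 ± 690.1 CPM with DHT against 2763 ± 553 CPM in control (adjusted p = 0.473), with a relative, Klk1b5, 94.4% identical over its whole length. Kng2, a kininogen, was at 409 ± 16.3 and 526 ± 108 CPM (adjusted p = 0.25), and its transcript is 92.9% identical to Kng1. Bdkrb2, the main bradykinin receptor, was at 2.54 ± 0.375 and 1.71 ± 0.181 CPM (adjusted p = 0.284), and Xpnpep2, a membrane peptidase that cuts bradykinin, at 9.65 ± 3.22 and 16.4 ± 6.78 CPM (adjusted p = 0.252).

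Genes that respond to aldosterone, the adrenal hormone released by angiotensin II, showed 2 called higher and 0 lower of 18 tested, with a median of -0.08. Among all tested genes 1.38% were called higher and 1.46% lower. The called genes were Usp2 and Tsc22d3, both of which glucocorticoids and the clock also control. Usp2, a deubiquitinase, rose from 76.6 ± 16.9 to 178 ± 46.2 CPM (a log2 difference of 1.22 ± 0.23, edgeR adjusted p = 0.0385), and Tsc22d3, a leucine zipper protein, from 32.3 ± 6.77 to 65.6 ± 13.6 CPM (1.02 ± 0.20, adjusted p = 0.0388). Both calls held without DHT replicate 2 or control replicate 1 and were lost without any of the other 4 libraries and with the replicate block. The genes for the subunits of the epithelial sodium channel that aldosterone raises, Scnn1a, Scnn1b and Scnn1g, had log2 fold changes of -0.22, 0.04 and -0.02, and Sgk1, its kinase, -0.09 (adjusted p = 0.853). Wnk4, a kinase that controls distal salt transport, was at 227 ± 32.6 CPM with DHT against 355 ± 42.1 CPM in control (adjusted p = 0.0634). Kcnj1, a potassium channel of the distal nephron, was at 367 ± 26.7 and 468 ± 64.1 CPM (adjusted p = 0.208). Aldosterone synthase, Cyp11b2, was at 0 counts.

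Genes whose profile over the 6 libraries was most like that of a member were found by the root mean square difference of centred log2 CPM. Candidates were the 12620 tested genes with a standard symbol and at least 1 CPM on average, so unnamed gene models were left out. For Lnpep the nearest were Csgalnact1 (0.135 log2), Coro2a (0.211), Tspan4 (0.213), Mirt2 (0.224) and Gpihbp1 (0.241). Csgalnact1, an enzyme that starts chondroitin sulfate chains, had 10.2, 11.6 and 10.3 CPM in DHT and 4.43, 3.68 and 3.81 CPM in control. Tspan4 and Mirt2 share exonic bases with Chid1 and Spatc1 on the other strand. For Ren1 the differences were larger, at 0.589 for Cyp2a5, 0.702 for Zbed6, 0.753 for Tsku, 0.769 for S100a9 and 0.775 for Nat8f2. S100a9 had 97 counts in DHT and 32 in control, 1 of them in control replicate 3, and did not pass (edgeR adjusted p = 0.174). Cyp2a5, a cytochrome P450, had 456, 520 and 344 CPM in DHT and 61.0, 54.9 and 25.1 CPM in control, but its transcript is 98.2% identical to Cyp2a4 over 86.4% of its length and the value is uncertain. Zbed6 is also uncertain, since all of its 5007 bases lie in the exons of another gene model.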

How the data were processed

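RNA was measured in 6 kidney samples. Per the labels' protocols, Trizol was used for extraction and Illumina methods for mRNA libraries, and per the submitters' processing notes HISAT2 2.0 and mm10 were used. For counting, the tool, annotation and strand setting are not given. In the table that the authors deposited, values are whole-number counts for each symbol, not normalized.

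Counts were filtered with filterByExpr (minimum count 10, minimum total 15), scaled by TMM and tested with edgeR 4.0.16 in R 4.3.3 (robust quasi-likelihood, group as the single term, Benjamini-Hochberg over 15367 genes, threshold 0.05). SE is what the F statistic implies. The common biological coefficient of variation was 0.217, and the test was tried on simulated data. Replicate pairs differed 23.3 to 64.1 times more than sampling noise by chi-square per gene. Alternatives were median-ratio and total-count scaling, 2 other filters, DESeq2 1.42.0, limma-voom (limma 3.58.1), no robust step, a replicate block and leaving out each library.

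Members and lists were chosen with earlier results of these data known. Named genes were the members, up to 4 of each pathway list by smallest p, all called list genes and the 5 nearest profiles for Ren1 and Lnpep. Others, such as Adcy5, Gja5, Anpep, Alb, the other liver and straight segment markers, Slc2a4 and the sodium channel genes, and the promoter letters, were chosen after their values were seen. Exon lengths, overlaps and positions come from GENCODE M21 on GRCm38, the assembly of mm10. Near-identical transcripts (95% over 50% of length) were sought with blastn 2.17.0+. Promoter windows are RefSeq's on GRCm38.p6, matched by symbol for 8 members. A gene of the lists is counted with its list and not reported here by name.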

Additional observations from a re-analysis of the deposited data

How the results depend on the processing

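Each group had 3 libraries, and 1 library could end a call. The count of members called was 2, both higher, with DESeq2, limma-voom or no robust step, and 0 to 1 when 1 library was left out (0 without DHT replicate 1 or 3 or control replicate 2). No member was called lower under any alternative run. Over all genes, 437 were called, 212 higher and 225 lower. These became 132 higher with total counts, 852 (418 and 434) with no low-count filter, 1634 (854 and 780) with DESeq2, and 0 to 1224 (0 to 745 and 0 to 479) when 1 library was left out. With DHT replicate 3 left out, where edgeR called 0 genes, 2763 were at an unadjusted p under 0.05 and no other tool was run.

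The replicate block gave 85 calls (36 and 49) and kept Lnpep (adjusted p = 0.0399). The labels do not say whether same-numbered samples share anything beyond the number. Their deviations from the group means correlated at 0.07, -0.15 and 0.04, and DHT replicate 3 went best with control replicate 2 (0.13). Deviations from means of 3 libraries cannot show whether such samples shared a batch.

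Ace, with no call, changed sign in 5 alternatives: 0.16 with limma-voom, 0.14 with the replicate block, 0.27 with DHT replicate 2 left out, 0.33 without control replicate 2, and 0.16 when control replicate 3 was dropped; it was -0.48 without control replicate 1. Atp6ap2 was at -0.011 with total counts and -0.007 without control replicate 3. Total counts moved the median of all genes by -0.10 log2. Agt, Agtr1a, Enpep, Lnpep and Ren1 kept their direction in all 14 alternatives. The cause of these changes was not tested. Agtr1b and Mas1 had too few counts at this depth to be tested.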
